A study of Caenorhabditis elegans with 2 samples.

Results

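The genes described here encode translation factors, the proteins that start, carry forward and end protein synthesis on the ribosome. They were chosen by name: every protein-coding gene of the Ensembl release 115 annotation of the Caenorhabditis elegans assembly WBcel235 whose name starts with eif-, eef-, iff-, ife-, ifg-, pab- or erfa-. The rule found 43 genes among 19973 protein-coding genes of the nuclear chromosomes. A gene was called bound when a peak summit lay between 1000 bp upstream and 200 bp downstream of a transcript 5′ end, here called the promoter window. The peaks come from chromatin immunoprecipitation followed by sequencing (ChIP-seq) of NHR-41, a nuclear receptor, one of a large family of DNA-binding transcription factors. In strain RW12221 the nhr-41 gene itself carries a TY1, EGFP and 3xFLAG tag inserted by CRISPR. Cultures of this strain were bleached, the larvae were held as starved L1 larvae, and whole animals were collected as L4 larvae at 48.5 h. There was 1 group of 2 biological replicates, both precipitated with an antibody against GFP. Whole animals mix all tissues, so a peak does not say in which cells the protein was bound. The comparisons are replicate with replicate, and these genes with all protein-coding genes.

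Translation proceeds in stages that the gene names follow. Initiation factors (eIF, with the worm names eif-, ife- and ifg-) bring the small ribosomal subunit, the initiator tRNA and the capped mRNA together. Elongation factors (eEF, eef-) then load aminoacyl-tRNAs and move the ribosome along the message, eIF5A (iff-) helps it past difficult stretches, and release factors (erfa-) free the finished chain. Poly(A)-binding proteins (pab-) coat the mRNA tail and connect it to the cap. Many worm transcripts receive a spliced leader by trans-splicing, so an annotated 5′ end can lie downstream of the point where transcription starts.

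The sequences under the summits are shown first because a nuclear receptor is known to meet DNA through a short core, AGGTCA in the textbook case. Those shown are windows of bound genes and that of eef-1G, which is not counted as bound. The window of the bound gene eef-2 is not shown but is included in the counts over bound genes below. Each window has 151 bases, 75 to each side of the summit, is read 5′ to 3′ in the direction of the named gene, and comes from the RefSeq sequence of WBcel235, the build that ce11 names. Capitals mark AGGTCA or its complement TGACCT, and TACGCA or its complement TGCGTA. The windows lie at chrII:8561357-8561507 on the minus strand (iff-2), chrX:13527484-13527634 on the minus strand (pab-2), chrX:7823242-7823392 on the plus strand (eef-1A.2), chrII:6968428-6968578 on the minus strand (eif-2Bgamma) and chrV:10965590-10965740 on the plus strand (eef-1G).
iff-2: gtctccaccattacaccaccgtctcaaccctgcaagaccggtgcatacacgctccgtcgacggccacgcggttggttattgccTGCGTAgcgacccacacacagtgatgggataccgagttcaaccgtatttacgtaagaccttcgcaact
pab-2: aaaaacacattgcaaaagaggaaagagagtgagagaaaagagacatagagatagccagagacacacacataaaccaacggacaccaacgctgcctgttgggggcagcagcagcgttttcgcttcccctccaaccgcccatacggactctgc
eef-1A.2: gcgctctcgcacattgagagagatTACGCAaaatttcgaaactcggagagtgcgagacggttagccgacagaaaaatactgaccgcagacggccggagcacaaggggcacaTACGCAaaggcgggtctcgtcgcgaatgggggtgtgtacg
eif-2Bgamma: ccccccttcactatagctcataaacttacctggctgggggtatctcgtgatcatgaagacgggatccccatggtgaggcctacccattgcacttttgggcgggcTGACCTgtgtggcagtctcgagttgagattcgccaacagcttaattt
eef-1G: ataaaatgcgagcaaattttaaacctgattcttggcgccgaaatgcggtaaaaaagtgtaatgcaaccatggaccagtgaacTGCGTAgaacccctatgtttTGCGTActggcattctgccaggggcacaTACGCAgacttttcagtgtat

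The core AGGTCA was present in 1 of the 5 windows of bound genes, that of eif-2Bgamma, at bases 29 to 34 downstream of the summit and on the strand opposite to the gene. Over all 1069 peaks of the conservative list it stood in 10.2% of such windows, and in 4.42% of equal windows centred 150 bp upstream of the outermost 5′ end of every protein-coding gene. The match at eif-2Bgamma lies inside the snRNA gene sup-39, which covers that summit. Part of the eif-2Bgamma window also occurs elsewhere in the genome, as described below. Whether the match falls in the repeated part was not tested. None of the 5 windows held AAGGTCA, the GATA factor site TGATAA, the E-box CACGTG, a direct repeat of AGGTCA with 0 to 5 bases between the copies and up to 2 mismatches, or the A box or B box of tRNA genes with up to 1 mismatch. AGGTCA inside AAGGTCA or inside a direct repeat counts for each of these motifs. Among all conservative windows TGATAA was present in 22.7%, CACGTG in 6.64%, AAGGTCA in 4.12%, the direct repeat in 6.45%, the A box in 18.1% and the B box in 21.0%. Among promoter windows of all genes TGATAA was present in 17.3%, CACGTG in 2.80%, AAGGTCA in 1.61%, the direct repeat in 3.69%, the A box in 1.45% and the B box in 0.896%. With 5 windows, the absence of a motif says only that these letters are not in this stretch.

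The eef-1A.2 and eef-1G windows share an unbroken run of 15 bases in the same orientation, the longest run that any pair of the 6 named windows had in common. It begins 27 bases downstream of the eef-1A.2 summit and 46 bases downstream of the eef-1G summit, and ends with TACGCA.
shared run: aggggcacatacgca
The 14 other pairs had longest shared runs of 6 to 9 bases. TACGCA, which was picked out after these windows had been read, was present in 2 of the 5 windows of bound genes, with 2 copies at eef-1A.2 and 1 at iff-2, and in 3 copies at eef-1G. It was present in 4 of the 12 windows of bound ribosomal protein genes, in 7.76% of all conservative windows and in 3.63% of promoter windows of all genes. These are descriptions of a string chosen on the same sequences and carry no test. The windows of bound genes had a GC content of 41.7 to 56.3%, with a median of 53.0%, against a median of 47.0% over all conservative windows and 33.8% over promoter windows.

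Of the 43 translation factor genes, 5 had a conservative summit in their promoter window, which is 11.6% (exact 95% interval 3.89 to 25.1). Over all 19973 protein-coding genes the share was 2.68%. The bound genes were iff-2, pab-2, eef-1A.2, eef-2 and eif-2Bgamma. The conservative list, with 1069 peaks, is shorter than the other thresholded list that the authors made from both replicates, with 1136. Its peaks carry an irreproducible discovery rate (IDR) score of 830 or more on a scale that ends at 1000. The lowest score was 830 in every thresholded list. In the conservative list the score is high where the replicates rank a peak high alike. What the scores of the other thresholded list compare was not examined. A score in a single replicate's own list does not compare the replicates. In the authors' other thresholded list 6 members were bound, the same 5 and eef-1G, which is 14.0% against 2.8% of all genes. In the list of replicate 1 alone 2 members were bound, iff-2 and pab-2, which is 4.65% against 0.871% of all genes. In that of replicate 2 alone 3 were bound, iff-2, eef-1A.2 and eef-2, which is 6.98% against 1.81%. The genes were chosen with earlier results of these data known, so no test of these differences was made, and the interval covers counting error only. The number of reads behind the peaks is unknown.

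The highest signal of the 5 belonged to iff-2, one of a pair of worm genes for eIF5A. Its peak at chrII:8561290-8561573 had its summit 65 bp upstream of the 5′ end, between iff-2 and the divergent gene F54C9.14, whose promoter window also held it. In each replicate's own ranked list the overlapping peak had a signal of 61.7 in replicate 1 and 79.3 in replicate 2, a mean of 70.5 ± 12.5 (SD, n = 2), in the units of the authors' peak caller. In the authors' list of both replicates the signal was 143, the rank 66 of 1069 conservative peaks. It had a score of 1000 in both replicates' own lists, and iff-2 was the only member past the authors' threshold in both. The summits of the replicates lay 1 bp and 5 bp from that of the combined list.

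The peak of pab-2, a poly(A)-binding protein gene, lay at chrX:13527417-13527700 with its summit 144 bp upstream of the outermost 5′ end, in intergenic sequence that no other gene's promoter window reached. Its signal was 52.8 in replicate 1 and 46.1 in replicate 2, a mean of 49.5 ± 4.74 (SD, n = 2), and 101 in the combined list, rank 256. Here replicate 1 had the higher value. Its score was 1000 in replicate 1 and 785 in replicate 2, the second of these under the threshold. The replicate 1 summit lay 70 bp nearer to the gene than the combined summit, and the replicate 2 summit 16 bp further away, so the replicates placed this summit less closely than that of iff-2.

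A pair of elongation factor genes had conservative peaks of nearly equal combined signal. The gene eef-1A.2, one of a pair for eEF1A, which delivers aminoacyl-tRNA to the ribosome, had its peak at chrX:7823175-7823458, 337 bp upstream of its single annotated 5′ end. The signal was 43.2 in replicate 1 and 50.6 in replicate 2, a mean of 46.9 ± 5.17 (SD, n = 2), and 93.0 in the combined list, rank 359. The gene eef-2, for eEF2, which moves the ribosome by a codon, had its peak at chrI:9163349-9163632, 40 bp upstream. Its signal was 36.7 in replicate 1 and 58.0 in replicate 2, a mean of 47.3 ± 15.1 (SD, n = 2), and 93.0 in the combined list, rank 360. Of these genes eef-2 had the wider gap between replicate signals. Its own-list score was 46 in replicate 1 and 1000 in replicate 2, while eef-1A.2 had 768 and 889 in this order. The replicate 1 signal of eef-2 ranked 647 of 38647 peaks in that list, so the score of 46 did not come with a low signal rank. The eef-2 summit also lay in the promoter window of the divergent gene clsp-1, 225 bp upstream of its 5′ end, so the peak cannot be given to one of these genes alone. An annotated ncRNA gene of unknown function, R03G5.8, lay 68 bp from the eef-1A.2 summit.

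The eif-2Bgamma peak differed from the other 4 in its place. This gene encodes a subunit of eIF2B, the exchange factor that recharges eIF2 with GTP. The peak at chrII:6968361-6968644 had its summit 855 bp upstream of the 5′ end, inside an intron of the upstream gene C15F1.5 and inside the snRNA gene sup-39 and the ncRNA gene C15F1.14 that lie there. Of its 121 overlapping words of 31 bases, 58 occurred elsewhere in the genome, with up to 12 copies, while every such word of the other 5 named windows occurred once. Whether reads from those other copies add to the signal was not tested. The signal was 45.5 in replicate 1 and 28.5 in replicate 2, a mean of 37.0 ± 12.05 (SD, n = 2), and 81.6 in the combined list, rank 557. Its score of 906 in the conservative list was the only one of the 5 under 1000, and neither replicate's own list held it past the threshold (784 in replicate 1 and 198 in replicate 2). Without summits within 500 bp of a tRNA, snRNA or snoRNA gene, 4 members were bound, 9.30% of the 43 against 2.18% of all genes. Of the 462 conservative peaks in promoter windows, 19.5% had a summit that close to such a gene.

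**Figure D1:**
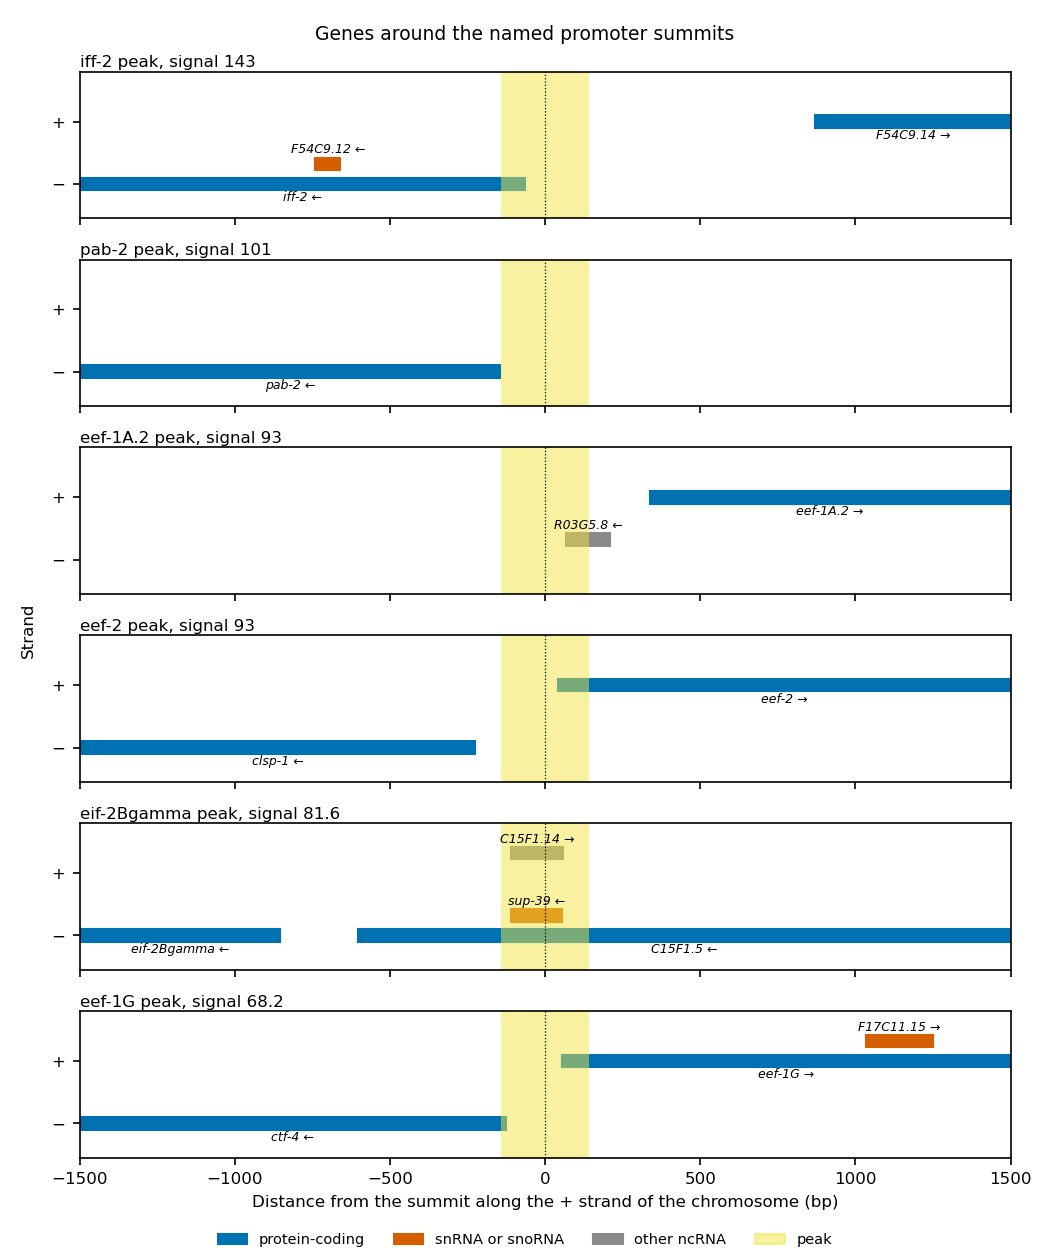
Genes within 1500 bp of the named summits, drawn on the plus and minus strands by distance from the summit, with the peak shaded and piRNA and miRNA genes left out. The summits of iff-2, pab-2, eef-1A.2, eef-2 and eef-1G lie between genes, and that of eif-2Bgamma lies inside sup-39 and an intron of C15F1.5.

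A sixth gene stood just under the authors' threshold. The gene eef-1G encodes the gamma subunit of eEF1B, the complex that reloads eEF1A with GTP. Its peak at chrV:10965523-10965806 had its summit 54 bp upstream of the outermost 5′ end and 126 bp upstream of the divergent gene ctf-4. The signal was 25.7 in replicate 1 and 40.1 in replicate 2, a mean of 32.9 ± 10.2 (SD, n = 2), and 68.2 in the combined list. Its own-list score was 153 in replicate 1 and 820 in replicate 2, and the replicate 2 summit lay 57 bp from the combined one. Its score was 815 in the ranked list behind the conservative one and 1000 in the other thresholded list. The same peak was thus absent from one list and present in the other. What the score of 1000 compares was not examined, so it is not read as agreement of the replicates. Counted with it, 3 of 6 elongation factor genes had a peak with a score of 540 or more, the score from which genes were named. No other unbound member had one. Over all members 6 of 43 reached 540, 14.0%, against 4.5% of all genes.

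**Figure D2:**
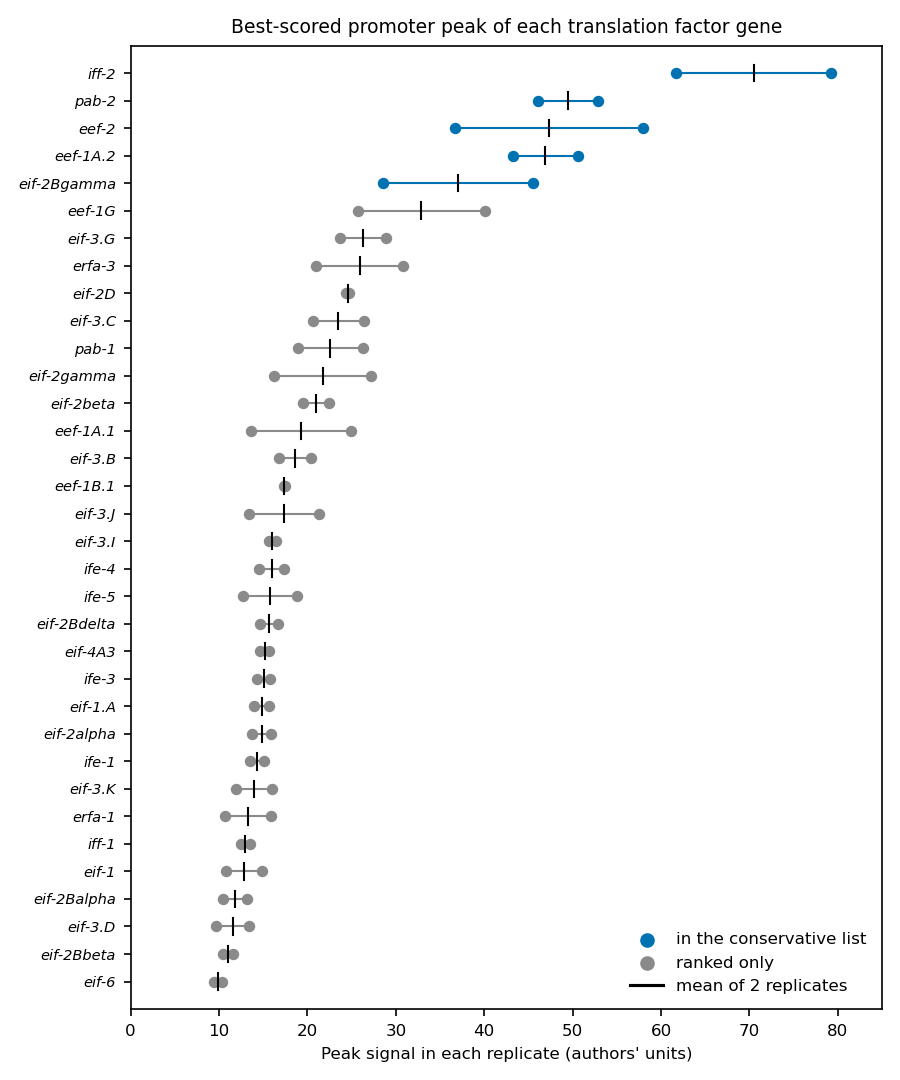
Signal of the best-scored promoter peak in each of 2 replicates (points, unnumbered) and their mean (bar) for the 34 translation factor genes with a ranked peak, in the authors' units. The means of the 5 bound genes, from 37.0 to 70.5, lie above those of the 29 others, from 9.92 to 32.9, and the bound genes were called on the same peaks. Some peaks of the unbound genes had no overlapping peak in the own ranked list of 1 or both replicates.

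The signal was higher in replicate 2 at iff-2, eef-1A.2, eef-2 and eef-1G, and higher in replicate 1 at pab-2 and eif-2Bgamma. Over the 1050 conservative peaks with a ranked peak in both replicates' own lists, replicate 2 had the higher signal at 76.7%, with medians of 36.9 in replicate 1 and 47.0 in replicate 2. Across the best-scored peaks of the 34 members with a ranked summit the replicate signals had a Pearson r of 0.865. Without the 5 bound genes r was 0.593 over 29 peaks. Each gene's peak was chosen by its score, which is higher where the replicates rank it high alike, so r is not an independent measure of their agreement. These values describe peaks from the same pair of libraries, and peaks are not replicates.

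Most of the other members carried weak ranked peaks. The ranked list holds 48276 peaks of both replicates with scores down to 26. It placed a summit in the promoter window of 34 of the 43 genes, 79.1% (exact 95% interval 64.0 to 90.0), against 48.9% of all protein-coding genes. This interval too covers counting error only, and the difference was not tested. The median best score was 107 over these 34 genes and 74 over all genes with a ranked summit. The median of the highest signals was 35.1 and 29.9 in the same order. Among the genes with no conservative summit, 29 of 38 members had a ranked one, 76.3% against 47.5% of all genes, with median best scores of 94 and 70. Of the 29, 15 had a best score under 100 and 7 of them had the list's minimum. The 9 members with no ranked summit were eef-1B.2, eif-2A, eif-2Bepsilon, eif-3.E, eif-3.F, eif-3.H, eif-3.L, ife-2 and ifg-1.

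**Figure D3:**
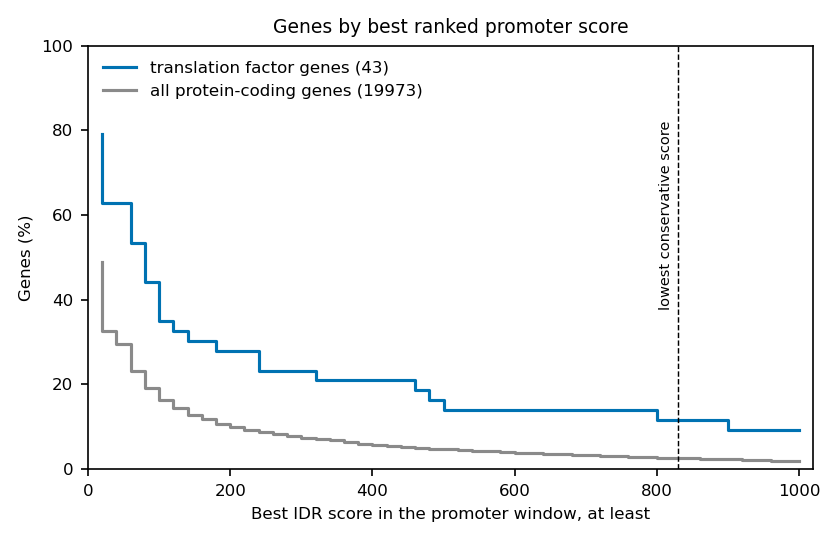
Share of genes whose best promoter peak reached at least the IDR score on the x axis, for the 43 translation factor genes and all 19973 protein-coding genes, with the lowest conservative score of 830 as a dashed line. The share at 100 or more was 44.2% of translation factor genes and 19.1% of all genes.

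Apart from eif-2Bgamma, no gene of the eif-, ife- and ifg- groups had a conservative summit. Of the 11 eIF3 genes, whose products form the scaffold that joins mRNA and small subunit, 7 had a ranked summit, where 48.9% of all genes had one, with best scores of 26 to 513. The highest was at eif-3.G, 376 bp upstream, with replicate signals of 28.9 and 23.7, a mean of 26.3 ± 3.67 (SD, n = 2). No peak in replicate 2's own ranked list overlapped this peak. Next came eif-3.C, with a score of 333 and replicate signals of 26.4 and 20.7, and eif-3.B, with a score of 184. A separate conservative peak with a signal of 91.9 and a score of 1000 lay 1062 bp upstream of eif-3.G, just outside the promoter window and in an intron of lips-10. Among conservative peaks, the member's peak nearest to the window's upstream edge from inside was that of eif-2Bgamma at 855 bp. Of the 7 genes for eIF1, eIF2 and related factors, several of which act in choosing the start codon, 6 had a ranked summit, with best scores of 26 to 469. The highest was at eif-2D, with replicate signals of 24.7 and 24.4, followed by eif-2beta with a score of 252 and eif-2gamma with 124, both genes for subunits of eIF2. The cap-binding eIF4E genes ife-1 to ife-5 and the eIF4G gene ifg-1 had the lowest top score of these groups, with 4 of 6 ranked and best scores of 63 to 89. With 6 to 11 genes a group, these counts of ranked genes were not compared with that 48.9%. The gene eif-4A3, whose product belongs to the exon junction complex and not to initiation proper, had a best score of 100, and eif-6, for a factor that keeps the ribosomal subunits apart, had 26.

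Of the eIF2B genes other than eif-2Bgamma, eif-2Balpha and eif-2Bbeta had the minimum score, eif-2Bdelta had 109 and eif-2Bepsilon had no ranked summit. The release factor genes were unbound. The erfa-3 gene, for eRF3, had a best score of 481 at 303 bp upstream, with replicate signals of 21.0 and 30.8, a mean of 25.9 ± 6.97 (SD, n = 2). Replicate 2's own ranked list held no peak overlapping this peak of erfa-3. The erfa-1 gene, for eRF1, which recognises stop codons, had the minimum score of 26. Of the 38 members with no conservative summit in the promoter window, 5 had one within 5000 bp of a 5′ end, at eif-3.G, pab-1, eif-6, eif-2alpha and eef-1G, which is 13.2% against 7.87% of all unbound protein-coding genes. The median distance to the nearest was 31854 bp for these members and 40740 bp for all unbound genes.

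The bound member of each pair of related genes could be set beside its unbound partner. At iff-2 the replicate signals were 61.7 and 79.3, against 13.5 and 12.5 at iff-1, the eIF5A gene known for its role in the germline. At pab-2 they were 52.8 and 46.1, against 26.3 and 18.9 at pab-1, whose best summit lay 189 bp downstream of a 5′ end. At eef-1A.2 they were 43.2 and 50.6, against 24.96 and 13.6 at eef-1A.1. Neither replicate's own ranked list held a peak overlapping that of eef-1A.1. In all 3 pairs both replicate signals of the bound gene exceeded both of the unbound one. The bound genes are those past a threshold on the same peaks, so the direction is set by that choice and carries no test. A conservative peak with a signal of 63.9 lay 1183 bp upstream of pab-1, in an exon of madf-10 and outside the promoter window.

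**Figure D4:**
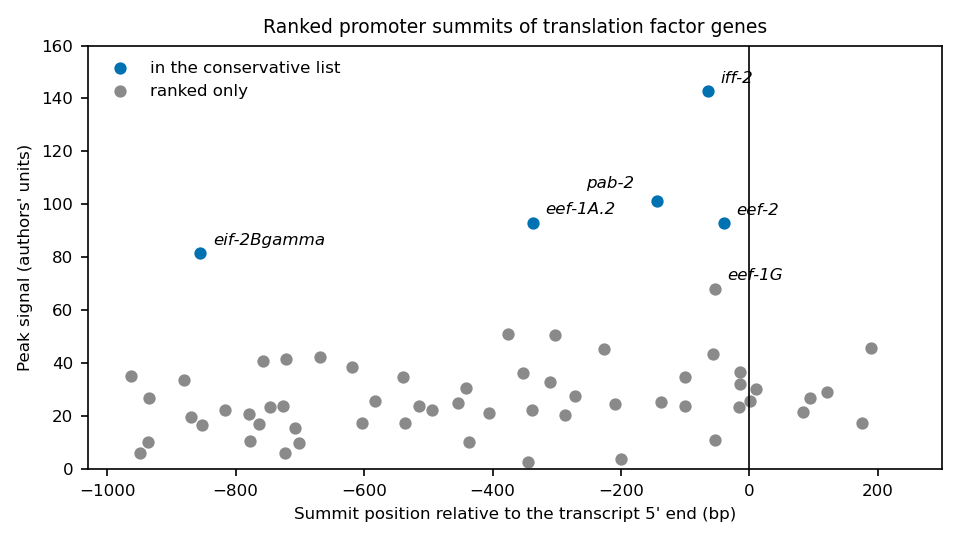
All 62 ranked promoter summits of translation factor genes by position relative to the transcript 5′ end and by signal in the list of both replicates. The 5 conservative summits, at 40, 65, 144, 337 and 855 bp upstream, have signals of 81.6 to 143, and that of eef-1G has 68.2.

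The conservative summits of eef-2, iff-2, pab-2, eef-1A.2 and eif-2Bgamma lay 40, 65, 144, 337 and 855 bp upstream of a 5′ end. Over the 535 bound genes of the genome the median was 293 bp upstream, and 17.9% had a summit within 100 bp, as did 2 of the 5 here. All 6 named peaks were 284 bp wide with the summit at the centre, a width that 97.6% of conservative peaks share. A summit position is therefore the centre of a peak of set width and not a resolved contact. On the X chromosome 2 of 4 members were bound, eef-1A.2 and pab-2, against 3.70% of all 2731 protein-coding genes there. On the autosomes 3 of 39 members were bound, against 2.52% of all 17242 genes. With 4 members on the X chromosome, the difference between X and autosomes was not tested. The nearest upstream gene of the bound members lay 252 to 2618 bp away, with a median of 935 bp, and that of the 38 others 65 to 4130 bp away, with a median of 505.5 bp. Over all protein-coding genes these medians were 1172 bp for bound and 1156 bp for unbound genes. An upstream gene on the same strand within 500 bp, as in worm operons, was present at 1 of 5 bound members and 6 of 38 others, against 13.3% of all bound genes and 18.2% of all unbound genes.

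Other genes of the translation machinery were read from lists of gene names. Among 23 genes for translation regulators and for factors under other names, 3 were bound, 13.0% against 2.68% of all genes. These were ifet-1, the worm homologue of the eIF4E transporter, with a peak signal of 108 and a mean of 52.1 ± 0.187 over the replicates (SD, n = 2), drr-2, related to eIF4H, also with 108 and a mean of 52.8 ± 10.5, and larp-1, an RNA-binding protein gene, with 104 and a mean of 53.8 ± 9.07. The ifet-1 peak was also that of the ribosomal protein gene rps-1. Among 32 aminoacyl-tRNA synthetase genes, which charge tRNAs with amino acids, 1 was bound, ears-2, with a signal of 87.7 and a mean of 42.6 ± 6.84, 3.13% against the same 2.68%. None of the 4 mitochondrial translation factor genes found by name was bound, where 2.68% of all genes were. Of 81 cytosolic ribosomal protein genes 12 were bound, 14.8% against the same 2.68%. Its 6 highest signals were 318 at rpl-3, 220.4 at rpl-35, 189 at rpl-15, 176 at rpl-20, 142 at rpl-7A and 108 at rps-1, of which rpl-7A had its summit within 500 bp of a small RNA gene. A control peak list was not used here, so whether the same sites appear in immunoprecipitations of other proteins was not tested.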

How the data were processed

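ChIP-seq of NHR-41 in L4 larvae was deposited as 8 peak lists on ce11: ranked and thresholded lists for each of 2 replicates, and 2 ranked, 1 thresholded and 1 conservative list of both. Sonicated fragments measured 200 to 800 bp, per the labels. Per the submitters' notes the lists derive from replicate alignments and a control alignment. Neither aligner nor peak caller is named in those sources. Deposited scores are IDR scores, with a ceiling of 1000. The deposited signal is a peak caller's value on a scale the sources do not state, and was used to describe and rank peaks within a list. Read depth is unknown.

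Summits were assigned to Ensembl release 115 promoter windows, on nuclear chromosomes, with Python 3.11.15, pandas 2.3.3 and SciPy 1.17.1. The best peak of a gene had the highest score, then signal. Replicate means came from 2 unnumbered columns of the ranked list, and numbered replicate values from the strongest peak of a replicate's own ranked list overlapping by 1 bp. A further 6 such columns were not used. Intervals are exact (Clopper-Pearson) at 95%. Named genes were every bound member, unbound members with a score of 540 or more, partners of bound members, and up to 6 bound genes per other list. Further names were chosen after their values were seen. The members and lists were chosen with earlier results of these data known. Assignment and motif search were tested on simulated data. Alternatives were other lists, promoter lengths of 500 and 2000 bp, a score of 1000, nearest 5′ ends, removal of peaks near small RNA genes or sharing replicate peaks, and motif windows of 50 and 100 bp to each side.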

Additional observations from a re-analysis of the deposited data

How the results depend on the processing

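The count of 5 bound members was within 1.5 times of itself in 7 of 9 alternatives, with 4 to 7 bound. Beside the share of all genes bound in the same setting, it was 6 in the other thresholded list (2.8%), 6 with nearest 5′ ends (4.53%), 7 with a promoter of 2000 bp (3.89%), 4 with one of 500 bp (1.9%), 4 with a score of 1000 (1.94%), 4 after removal of peaks near small RNA genes (2.18%) and 5 with 1 peak per pair of replicate peaks (2.68%). It was 2 to 3 in the lists of single replicates (0.871% and 1.81%). The counts of 6 and 7 thus came with a higher share of all genes too. The bound set held iff-2 in all 9, and eif-2Bgamma in 4. The signal in single replicates was 61.7 to 79.3 at iff-2, 46.1 to 52.8 at pab-2, 43.2 to 50.6 at eef-1A.2, 36.7 to 58.0 at eef-2 and 28.5 to 45.5 at eif-2Bgamma, on the scale of 1 library. The count of 1 bound synthetase gene was 0 to 0 in the lists of single replicates. Of 53 alternatives in all, 39 kept their value. For counts the limit was 1.5 times, and for signals a shift smaller than the SD of the replicates. The signals in single replicates all moved, but they were set against the combined signal, which is on another scale. Motif counts of 0 all stayed 0, and the combined signals of the bound genes were identical in the other ranked list. The tally therefore says little about stability. No paired analysis was possible because the study has 1 group. No depth limit can be given, because the lists carry no read totals.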

Other observations

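The run of 15 bases shared by the eef-1A.2 and eef-1G windows had 5 exact copies in the genome, counted on both strands. Besides those at eef-1A.2 and eef-1G, 2 copies in opposite orientation lay 380 and 337 bp upstream of icd-1, which encodes the beta subunit of the nascent polypeptide-associated complex, a chaperone at the ribosome exit. Both stood within 35 bp of the summit of a conservative peak with a signal of 89.4. The copy that remains lay 4097 bp downstream of the 5′ end of F49F1.17 and under no ranked peak. The run was found by reading these windows, so its presence under peaks carries no test.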
